A study of Mus musculus with 27 samples.

Results

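The genes described here are 8 genes of radial glia and early neural progenitors, measured in motor neuron progenitors after induction of the transcription factor Nkx2.2 or of its SD mutant: the glial genes Slc1a3, Fabp7 and Vim, the glial and duct factor Sox9, the SoxB1 genes Sox1, Sox2 and Sox3, and the SoxB2 gene Sox21. They were chosen by name, as rows of the progenitor count table, and are 8 of the 39017 rows of that table. Mouse embryonic stem (ES) cells were differentiated towards motor neuron progenitors, and RNA was sequenced on day 4 of the differentiation. The controls, labelled pMN, were 3 libraries of the line that carries an inducible wildtype Nkx2.2 (mES iNkx2.2), without doxycycline. The iNkx2.2 group was 3 libraries of that line after about 16 h in 1 µg/ml doxycycline, and the iSDmut group was 2 libraries of a separate ES line (mES iSDmut) with the mutant transgene, given the same treatment. The series also holds whole E15.5 embryonic pancreas (3 controls, 4 SD mutants), islets at 8 weeks (2 controls, 3 labelled betaSDmut, with the mutation in beta cells), islets at 4 weeks (2 controls, 2 labelled betaKO, with Nkx2.2 removed from beta cells), and Nkx2.2 chromatin immunoprecipitation in the mouse beta-cell line MIN6.

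No uninduced library of the iSDmut line and no doxycycline-treated library without a transgene was analysed here, so a difference between the ES lines or an effect of doxycycline cannot be told apart from that of the transgene. The labels name neither the Cre driver of the islet models nor the sex of the animals. They do not say whether replicate libraries came from separate cultures, so the p-values measure only the spread between these libraries, which may be technical.

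Radial glia are the elongated stem and progenitor cells of the developing neural tube. They express glial genes such as the glutamate transporter Slc1a3 (GLAST), the lipid carrier Fabp7 (BLBP) and the intermediate filament Vim, and they give rise to neurons and later to glia. The SoxB1 factors Sox1, Sox2 and Sox3 bind the same DNA motif through their HMG domain, are expressed together in neural progenitors, and hold these cells in an undifferentiated state. Sox21 belongs to the SoxB2 group, which has a related HMG domain but represses transcription, and Sox9, a SoxE factor, is needed for the switch to making glia and is also a gene of pancreatic progenitors and ducts. Nkx2.2 is a homeodomain repressor that marks the p3 progenitors ventral to the Olig2-expressing motor neuron progenitors, and in the pancreas it is needed for beta cells. The SD is a conserved stretch outside the homeodomain of Nkx2 proteins.

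Promoter sequence is shown for Slc1a3, whose counts fell most, for Sox2, which fell in both induced groups, and for Vim, the one of these genes with a final Nkx2.2 site within 100 kb. The promoter table made from RefSeq (GRCm38.p6) held 6 of the 8 genes. RefSeq starts can differ from the GENCODE starts used below for gene positions and distances, and the Vim window lies inside the GENCODE gene. The 250 bases before the RefSeq start were searched on both strands for the core bound by Nkx2 homeodomains, AAGTG, which reads CACTT when it lies on the other strand, and for the core bound by Sox factors, ACAAT, which reads ATTGT when it lies on the other strand. Capitals mark these cores in the sequences of Slc1a3, at chr15:8710808-8711057 on the minus strand, of Sox2, at chr3:34649745-34649994 on the plus strand, and of Vim, at chr2:13574061-13574310 on the plus strand.
Slc1a3 promoter: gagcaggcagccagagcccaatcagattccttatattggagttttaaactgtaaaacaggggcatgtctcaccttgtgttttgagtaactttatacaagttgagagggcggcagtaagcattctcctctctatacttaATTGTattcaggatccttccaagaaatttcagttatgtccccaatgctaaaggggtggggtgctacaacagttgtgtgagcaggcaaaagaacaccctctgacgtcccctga
Sox2 promoter: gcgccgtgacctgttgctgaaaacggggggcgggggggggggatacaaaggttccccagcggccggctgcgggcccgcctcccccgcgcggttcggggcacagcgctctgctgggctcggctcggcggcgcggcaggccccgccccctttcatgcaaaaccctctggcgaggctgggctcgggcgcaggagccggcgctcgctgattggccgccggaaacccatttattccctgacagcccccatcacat
Vim promoter: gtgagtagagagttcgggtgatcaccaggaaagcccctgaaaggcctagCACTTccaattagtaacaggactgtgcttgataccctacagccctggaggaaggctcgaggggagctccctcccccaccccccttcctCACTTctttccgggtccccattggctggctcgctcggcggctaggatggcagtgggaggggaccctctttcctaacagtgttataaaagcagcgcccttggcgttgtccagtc
The Slc1a3 window held 1 Sox core and no Nkx2 core, the Sox2 window held neither, and the Vim window held 2 Nkx2 cores. Among the 6 promoters, an Nkx2 core stood in those of Sox21 and Vim, and a Sox core in those of Slc1a3 and Fabp7. In the 32851 promoters of the table, 40.7% held the Nkx2 core and 27.7% the Sox core, so matches of this kind are common.

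The progenitor libraries held 17757991 to 46840701 counts, the embryonic pancreas libraries 38447596 to 41840638, and the islet libraries 12398041 to 32385406. Values are counts scaled to a library of 1000000 (CPM) on library sizes scaled by TMM, and changes are log2 fold changes with standard errors (SE) from edgeR's quasi-likelihood test, called where the p-value adjusted over all genes was under 0.05. Nkx2-2 itself was at 11.6, 5.40 and 10.7 CPM in pMN, 378, 343 and 343 CPM in iNkx2.2, and 248 and 245 CPM in iSDmut. The induced groups lay far above the controls, iSDmut below iNkx2.2 with no overlap (log2 change -0.53, SE 0.222, edgeR adjusted p = 0.370). The pMN libraries expressed genes found in motor neuron progenitors, not all of them particular to these cells. The mean levels were 254 CPM for Olig2, 225 CPM for Nkx6-1, 118 CPM for Pax6, 27.9 CPM for Nkx6-2 and 150 CPM for Hoxb4. Olig2 and Pax6 fell after iNkx2.2, with log2 changes of -5.35 and -5.54 (edgeR adjusted p = 0.0011 and 0.000102). Sequencing lanes are the lane numbers in the titles, which name no flow cell or run. By these numbers, iSDmut replicate 1 shared lane 2 with replicates 1 and 2 of the other groups. iSDmut replicate 2 was alone on lane 3, and replicate 3 of pMN and of iNkx2.2 were on lane 4.

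After induction of wildtype Nkx2.2, edgeR called Slc1a3, Sox3 and Sox2 lower. It called none of the 8 genes higher, a direction in which it called 4.71% of all genes. This made 3 of 8 genes called, all lower, where edgeR called 9.49% of the 15653 genes tested in this comparison and 4.78% as lower. After the SD mutant, Slc1a3 and Sox2 fell, which made 2 of 8 where 3.54% of all genes were called, 1.64% as lower and 1.9% as higher. Between iSDmut and iNkx2.2 no gene of the 8 was called by edgeR (0.281% of all genes, 0.16% as higher and 0.121% as lower), 3 had an unadjusted p under 0.05 (Slc1a3, Sox9 and Sox21), and DESeq2 called 1 (Slc1a3). Both induced groups were set against the same 3 pMN libraries, so these comparisons are not independent of each other. Replicates of the same number in pMN and iNkx2.2 deviated together, and with the replicate number as a block edgeR called 7 of the 8 genes, 5 lower and 2 higher, against 29.6% of all genes, 15.7% lower and 13.8% higher.

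**Figure D1:**
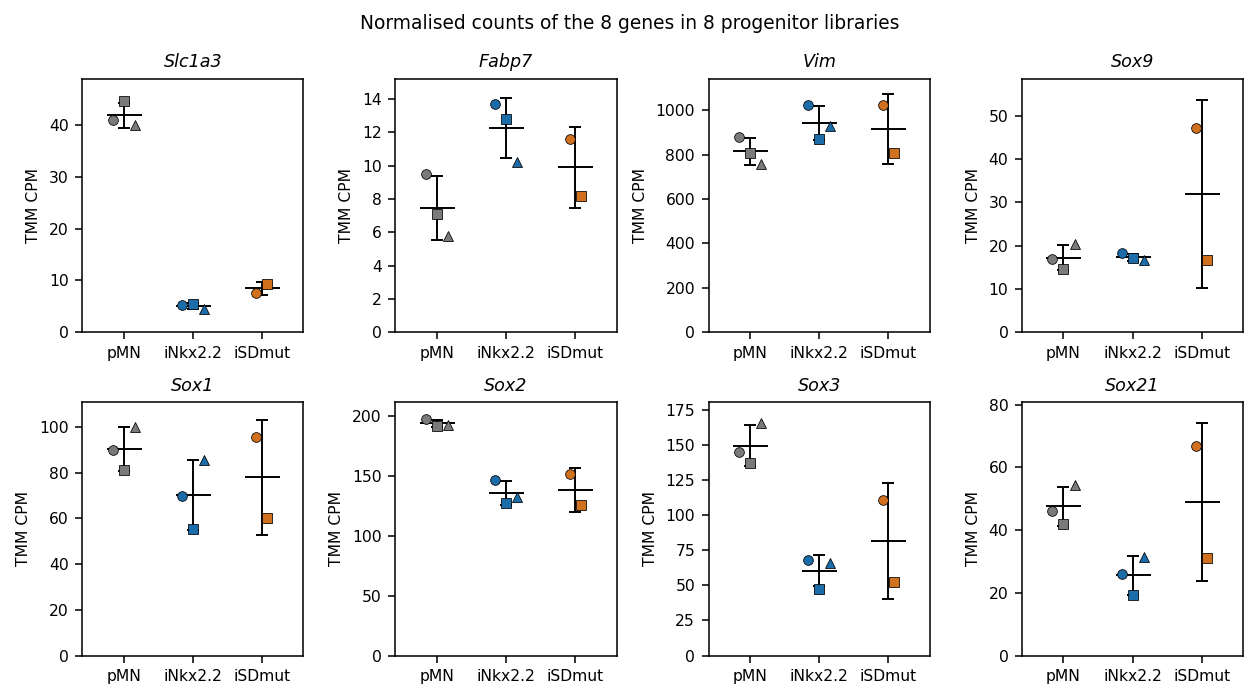
TMM CPM of the 8 genes in each progenitor library, 1 panel per gene, with groups pMN, iNkx2.2 and iSDmut on the x axis. Points are libraries (circle, square and triangle for replicates 1, 2 and 3), and bars are the mean ± SD. Slc1a3 separates pMN (40.1 to 44.6 CPM) from both induced groups (4.45 to 9.39 CPM), and iSDmut replicate 1 stands above replicate 2 for Sox9, Sox21 and Sox3.

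Slc1a3 (chr15:8634124-8710764, minus strand, GRCm38) encodes the transporter that clears glutamate into radial glia and astrocytes. Its level was 40.9, 44.6 and 40.1 CPM in the pMN libraries, 5.29, 5.37 and 4.45 CPM after iNkx2.2, and 7.62 and 9.39 CPM after iSDmut. The 3 groups did not overlap: every induced library was far below every control, and both mutant libraries were above all wildtype ones. The mean fell from 41.9 ± 2.40 CPM (SD, n = 3) to 5.04 ± 0.508 CPM (SD, n = 3), a ratio of 0.120 and a log2 change of -3.05 (SE 0.143, 95% interval -3.37 to -2.73, edgeR adjusted p = 1.49e-05). Among all genes tested in that comparison, Slc1a3 ranked 2 by p-value, after Nkx2-2. In these bulk libraries, fewer cells of a type and less RNA per cell cannot be told apart.

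With the SD mutant the mean of Slc1a3 was 8.50 ± 1.26 CPM (SD, n = 2), a ratio to pMN of 0.203 and a log2 change of -2.29 (SE 0.161, 95% interval -2.66 to -1.93, edgeR adjusted p = 0.000344). Its rank by p-value in that comparison was 4. The direct comparison of the transgenes left Slc1a3 1.69 times higher in iSDmut, a log2 difference of 0.76 (SE 0.154, 95% interval 0.41 to 1.10) with an edgeR adjusted p of 0.0886. That difference was called by DESeq2 (adjusted p = 0.00352) and with a replicate block (edgeR, 0.70 on the log2 scale, adjusted p = 0.0199), and by none of the other 13 alternatives, among which the adjusted p reached 0.706. On the deposited FPKM scale, which is per transcript length, the iNkx2.2 libraries were at 1.44, 1.54 and 1.19 and the iSDmut libraries at 1.46 and 1.86, so there the induced groups overlapped. The level of Nkx2-2 transcript also differed between those groups, and its part in the difference of Slc1a3 was not tested.

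Fabp7 (chr10:57784881-57788450, plus strand) encodes a fatty acid binding protein of radial glia. It was at 9.52, 7.10 and 5.76 CPM in pMN, 13.7, 12.8 and 10.2 CPM in iNkx2.2, and 11.6 and 8.19 CPM in iSDmut. The iNkx2.2 libraries were all above the pMN libraries, while the iSDmut libraries overlapped both groups. Against a pMN mean of 7.46 ± 1.91 CPM (SD, n = 3), the iNkx2.2 mean of 12.2 ± 1.81 CPM (SD, n = 3) gave a log2 change of 0.72 (SE 0.231, 95% interval 0.20 to 1.24, edgeR adjusted p = 0.0843). With the replicate block the change was 0.73 and was called (edgeR adjusted p = 0.00517), so Fabp7 lay opposite to Slc1a3 in the paired fit. For iSDmut the log2 change from pMN was 0.41 (SE 0.259, edgeR adjusted p = 0.421).

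Vim (chr2:13573927-13582826, plus strand), the intermediate filament gene of radial glia and of mesenchyme, was the most abundant of the 8 transcripts. It was at 881, 806 and 758 CPM in pMN, 1025, 873 and 931 CPM in iNkx2.2, and 1026 and 806 CPM in iSDmut. All 3 groups overlapped in CPM. The log2 change was 0.21 after iNkx2.2 (SE 0.122, 95% interval -0.06 to 0.48, edgeR adjusted p = 0.322) and 0.17 after iSDmut (edgeR adjusted p = 0.533). The replicate block put the first of these past the threshold with the same size (edgeR, 0.21, adjusted p = 0.0349). On the deposited FPKM scale the iNkx2.2 libraries (489 to 563) lay above the pMN libraries (389 to 460), with a limma log2 change of 0.33 (adjusted p = 0.168).

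Sox9 (chr11:112782224-112787760, plus strand), a SoxE factor of gliogenesis, was at 16.8, 14.6 and 20.4 CPM in pMN and at 18.3, 17.1 and 16.6 CPM in iNkx2.2. The iSDmut libraries were at 47.3 and 16.6 CPM, so replicate 1 stood above all other libraries and replicate 2 lay among them. The log2 change after iNkx2.2 was 0.01 (SE 0.311, 95% interval -0.69 to 0.70, edgeR adjusted p = 0.993). For iSDmut the change from pMN was 0.88 (SE 0.342, edgeR adjusted p = 0.188) and from iNkx2.2 0.87 (SE 0.339, 95% interval 0.11 to 1.63, edgeR adjusted p = 0.329). Over 15 alternatives the change from pMN ran from -0.06, without iSDmut replicate 1, to 1.61, within lane 2, which leaves 1 iSDmut library. It was called in 3 of those 15.

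The 2 iSDmut libraries differed from each other at most of the Sox genes. Replicate 1 was 2.84 times replicate 2 for Sox9, and 95.3% of the 15653 genes tested had a smaller absolute log2 ratio between those libraries. The ratio was 2.15 for Sox21, 2.11 for Sox3, 1.59 for Sox1 and 1.20 for Sox2, and 0.811 for Slc1a3, the only one of the 8 genes that was lower in replicate 1. The median absolute log2 ratio over all genes was 0.22. Within lane 2, which leaves 1 iSDmut library, Sox9 and Sox21 were called higher in iSDmut than in iNkx2.2, by 1.41 and 1.55 on the log2 scale (edgeR adjusted p = 0.0307 and 0.0322, the lone library being assumed to vary like the other groups). Library and lane cannot be told apart within iSDmut.

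Sox2 (chr3:34650405-34652461, plus strand), the SoxB1 factor that is also a core factor of pluripotent cells, was at 198, 192 and 192 CPM in pMN, 147, 127 and 132 CPM in iNkx2.2, and 151 and 126 CPM in iSDmut. Every induced library was below every control, and the 2 induced groups overlapped. The mean fell from 194 ± 3.06 CPM (SD, n = 3) to 135 ± 10.04 CPM (SD, n = 3) with iNkx2.2, a ratio of 0.698 and a log2 change of -0.52 (SE 0.0984, 95% interval -0.74 to -0.30, edgeR adjusted p = 0.0134). With iSDmut the mean was 138 ± 18.2 CPM (SD, n = 2), a log2 change of -0.49 (SE 0.111, edgeR adjusted p = 0.0463). The iSDmut libraries differed from the iNkx2.2 libraries by 0.03 on the log2 scale (95% interval -0.21 to 0.28, edgeR adjusted p = 0.926).

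The fall of Sox2 after iSDmut was near the threshold: it was called in 5 of 15 alternatives, with adjusted p from 0.00327 to 0.214, and leaving out any 1 of the 5 libraries of the comparison ended the call (edgeR adjusted p = 0.0570 to 0.205). After iNkx2.2 it was called in 15 of 16 alternatives, and without pMN replicate 1 the edgeR adjusted p was 0.0613.

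Sox3 (chrX:60891366-60893430, minus strand), the SoxB1 gene on the X chromosome, was at 145, 137 and 165 CPM in pMN, 68.1, 47.6 and 65.7 CPM in iNkx2.2, and 111 and 52.6 CPM in iSDmut. All induced libraries were below the controls, and iSDmut replicate 1 lay between the other induced libraries and pMN. The mean fell from 149 ± 14.6 CPM (SD, n = 3) to 60.4 ± 11.2 CPM (SD, n = 3) with iNkx2.2, a ratio of 0.405 and a log2 change of -1.30 (SE 0.244, edgeR adjusted p = 0.0126). With iSDmut the log2 change was -0.87 (SE 0.276, 95% interval -1.49 to -0.25, edgeR adjusted p = 0.117). Without iSDmut replicate 1 that change was -1.50 and was called (edgeR adjusted p = 0.0124), and without pMN replicate 1 the change after iNkx2.2 missed the threshold (edgeR adjusted p = 0.0501). The direct difference, 0.43 (95% interval -0.17 to 1.03, edgeR adjusted p = 0.556), was not called.

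Sox1 (chr8:12395295-12400126, plus strand), the SoxB1 factor most restricted to neural tissue, was at 90.0, 80.9 and 100 CPM in pMN, 69.7, 55.1 and 85.6 CPM in iNkx2.2, and 95.6 and 60.1 CPM in iSDmut. The groups overlapped. The log2 change after iNkx2.2 was -0.36 (SE 0.196, 95% interval -0.80 to 0.07, edgeR adjusted p = 0.282), and with the replicate block it was -0.38 and was called (edgeR adjusted p = 0.0239). The iSDmut change was -0.22 (edgeR adjusted p = 0.628).

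**Figure D2:**
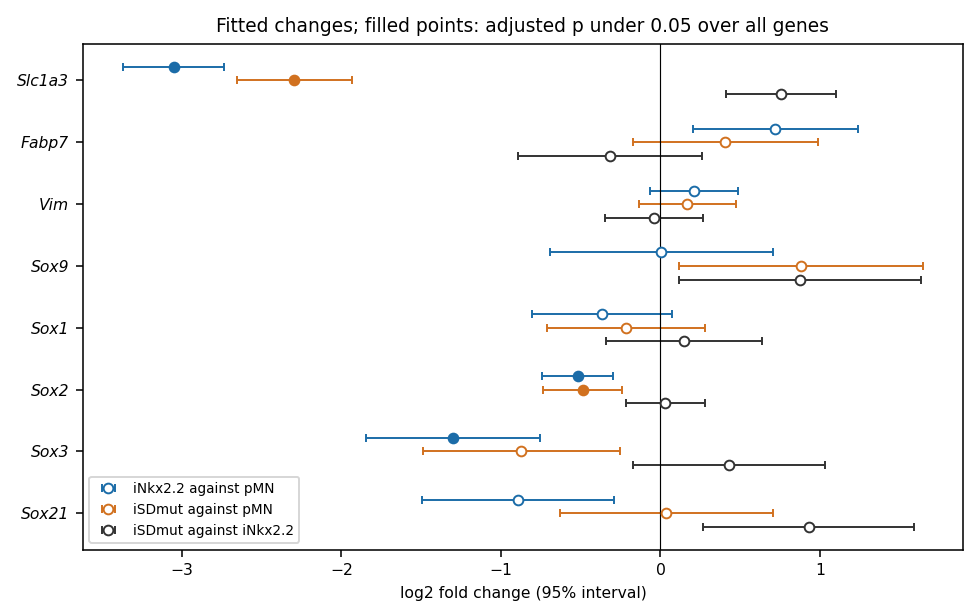
Log2 fold changes with 95% intervals (x axis) of the 8 genes (y axis) in the 3 progenitor comparisons, from the edgeR fit on 8 libraries. Filled points have an adjusted p under 0.05 over all genes. Slc1a3 lies at -3.05 and -2.29 against pMN, far to the left of the other genes, and no point of the iSDmut against iNkx2.2 comparison is filled.

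Sox21 (chr14:118233232-118237030, minus strand), the SoxB2 repressor that opposes SoxB1 factors in neurogenesis, was at 46.2, 41.98 and 54.4 CPM in pMN, 26.1, 19.2 and 31.5 CPM in iNkx2.2, and 66.8 and 31.0 CPM in iSDmut. The iNkx2.2 libraries were all below pMN, and the iSDmut libraries lay on either side of pMN. The log2 change after iNkx2.2 was -0.89 (SE 0.269, 95% interval -1.49 to -0.29, edgeR adjusted p = 0.0692), and with the replicate block it was -0.92 and was called (edgeR adjusted p = 0.0136). For iSDmut the change from pMN was 0.04 (edgeR adjusted p = 0.962), and the difference from iNkx2.2 was 0.93 (SE 0.295, 95% interval 0.27 to 1.59, edgeR adjusted p = 0.240).

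Over the 8 genes, the CPM of pMN and iNkx2.2 did not overlap for 5 (Slc1a3, Fabp7, Sox2, Sox3 and Sox21), while this held for 31.4% of all genes tested. The same count was 3 of 8 for iSDmut against pMN (36.4% of all genes) and 1 of 8, Slc1a3, for iSDmut against iNkx2.2 (31.9% of all genes). The median log2 change of the 8 genes was -0.44 after iNkx2.2 and -0.09 after iSDmut, and that of all genes was -0.01 in each comparison. The fall of Slc1a3 after iNkx2.2 was called in 16 of 16 alternatives (-3.10 to -2.55 on the log2 scale) and that after iSDmut in 15 of 15 (-2.51 to -2.15). The authors' deposited table gave log2 changes of -3.00 and -2.17 for Slc1a3 and -0.48 and -0.48 for Sox2 against pMN, called in both groups, and -1.26 for Sox3 after iNkx2.2, also called.

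Sox2ot (chr3:34104270-34682619, plus strand) is a long noncoding RNA gene that spans Sox2 on the same strand with no shared exon bases. It was at 64.3, 71.4 and 49.2 CPM in pMN, 22.5, 16.7 and 12.3 CPM in iNkx2.2, and 47.5 and 23.8 CPM in iSDmut. All induced libraries were below the controls. It fell by 1.84 on the log2 scale after iNkx2.2 (SE 0.287, edgeR adjusted p = 0.00568) and was at -0.79 after iSDmut (edgeR adjusted p = 0.201). The count rule and use of strand are not given in the sources used here, so reads of Sox2 and intronic reads of Sox2ot, of Sox21 and its antisense gene Gm4675 (713 shared exon bases), and of Slc1a3, Sox1 and the transcripts that overlap them, may not be fully separate.

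Levels of different genes were compared on the deposited FPKM scale. In pMN the order of the mean FPKM levels was Vim at 420 ± 36.1, Sox3 at 81.7 ± 13.8, Sox2 at 73.7 ± 3.90, Sox1 at 19.4 ± 2.94, Sox21 at 15.4 ± 3.14, Slc1a3 at 8.57 ± 0.430, Fabp7 at 6.92 ± 1.39 and Sox9 at 3.72 ± 0.740 (SD, n = 3). In that order the libraries of Sox3 and Sox2, of Sox1 and Sox21, and of Slc1a3 and Fabp7 overlapped, and other neighbours did not. In iNkx2.2 the mean FPKM levels were Vim at 529 ± 37.2, Sox2 at 55.3 ± 2.69, Sox3 at 35.8 ± 6.55, Sox1 at 16.2 ± 3.98, Fabp7 at 12.2 ± 1.87, Sox21 at 8.77 ± 2.47, Sox9 at 3.97 ± 0.0319 and Slc1a3 at 1.39 ± 0.181 (SD, n = 3), where Sox1 and Fabp7, and Fabp7 and Sox21, overlapped. Slc1a3 thus stood above Fabp7 and Sox9 in mean FPKM in the controls and below all 7 other genes after Nkx2.2. In iSDmut the mean FPKM levels were Vim at 476 ± 87.0, Sox2 at 53.7 ± 3.08, Sox3 at 45.4 ± 18.1, Sox1 at 17.2 ± 4.51, Sox21 at 16.2 ± 7.11, Fabp7 at 9.09 ± 2.26, Sox9 at 6.92 ± 4.48 and Slc1a3 at 1.66 ± 0.285 (SD, n = 2), with Slc1a3 lowest again. Dividing CPM by exon length instead exchanged Sox2 with Sox3 and Slc1a3 with Fabp7 in pMN, and no ranks in the induced groups.

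The summed FPKM level of the 3 SoxB1 genes was 168, 158 and 198 in pMN, 106, 94.9 and 121 in iNkx2.2, and 134 and 98.04 in iSDmut. Every induced library was below every control. The share of Sox3 in that sum was 45.1%, 45.3% and 49.3% in pMN, 33.4%, 31.0% and 35.1% in iNkx2.2, and 43.3% and 33.2% in iSDmut. The wildtype and control libraries did not overlap in this share, with means of 33.2% ± 2.06 (SD, n = 3) and 46.6% ± 2.39 (SD, n = 3), and the mean share of Sox2 was 51.9% ± 3.798 against 42.4% ± 2.66 (SD, n = 3 each). These sums and shares are descriptions with no test.

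**Figure D3:**
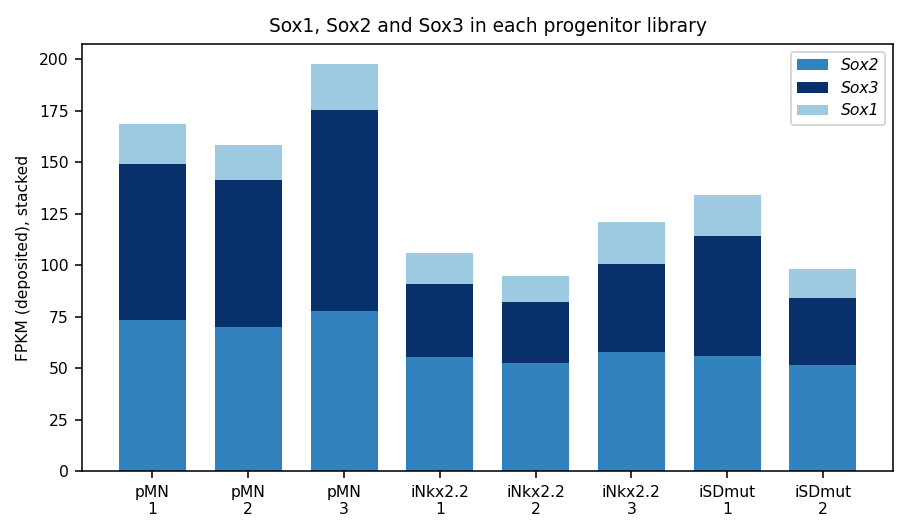
Deposited FPKM (y axis) of Sox2, Sox3 and Sox1 stacked for each of the 8 progenitor libraries (x axis). The stacks of pMN reach 158 to 198 and those of the induced libraries 94.9 to 134, and the Sox3 segment is the one that shrinks most in iNkx2.2.

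The other genes of these cells were read from lists. Of 22 other radial glia and neural progenitor genes, all tested, 1 was higher and 1 lower after iNkx2.2: Ttyh1, a membrane protein of neural progenitors, rose by 1.39 (edgeR adjusted p = 0.00957) and Pax6, a dorsal and motor neuron progenitor factor, fell, as given above. The median log2 change of that list was 0.07. Nes, the progenitor intermediate filament, was at -0.08 (edgeR adjusted p = 0.771) and Hes5, a Notch target, at 0.26 (edgeR adjusted p = 0.667), both named after their values were seen. After iSDmut, Ttyh1 rose by 1.76 (edgeR adjusted p = 0.00873), and Pax6 and Lix1 fell by 2.77 and 2.28 (edgeR adjusted p = 0.00722 and 0.0220). Pax6 was at 97.8, 161 and 95.1 CPM in pMN, 2.61, 2.19 and 2.75 CPM in iNkx2.2, and 25.1 and 9.77 CPM in iSDmut, and it was the gene of that list that was called between the transgenes (log2 difference 2.77 above iNkx2.2, SE 0.385, edgeR adjusted p = 0.0304).

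Of 14 other Sox genes, 10 were tested. Sox5, a SoxD factor of neural progenitors and glia, rose after iNkx2.2 by 1.51 (SE 0.280, edgeR adjusted p = 0.0120), with 2.23, 1.76 and 3.30 CPM in pMN, 7.002, 6.89 and 7.13 CPM in iNkx2.2, and 3.64 and 5.69 CPM in iSDmut. The other 9 were not called, and edgeR called 0 of the 10 after iSDmut, where 5 had an unadjusted p under 0.05. Astrocyte genes moved in both directions. Of 6 tested astrocyte genes, Aqp4, with 4 counts in all in pMN and 74 in iNkx2.2, and Glul rose after iNkx2.2 by 3.31 and 0.41 (edgeR adjusted p = 0.0410 and 0.0404), and Gja1, a gap junction gene of radial glia and astrocytes, fell by 1.56 (edgeR adjusted p = 0.00198). Gja1 also fell after iSDmut, by 1.08 (edgeR adjusted p = 0.0334). The summed level of the 8 astrocyte genes was 364 to 386 CPM in pMN, 330 to 351 CPM in iNkx2.2 and 277 to 301 CPM in iSDmut, and no marker of that list was at 0 in every library.

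Several marker lists of other cells differed between these groups. Of 12 neuron genes, all tested, Syt1, Map2 and Tubb3 rose after iNkx2.2 by 1.52, 1.19 and 1.01 (edgeR adjusted p = 0.00318, 0.0197 and 0.0284). Syt1 rose after iSDmut by 2.71 (edgeR adjusted p = 0.000703). After iNkx2.2, 7 of the 12 were above 0 and the median log2 change was 0.10, and after iSDmut 10 were, with a median of 0.69. The summed neuron list was at 489 to 1035 CPM in pMN, 981 to 1461 CPM in iNkx2.2 and 1146 to 1435 CPM in iSDmut. Of 10 tested pluripotency genes, edgeR called 0 after iNkx2.2 (2 had an unadjusted p under 0.05). After iSDmut Esrrb rose by 3.43 and Lin28a fell by 0.61 (edgeR adjusted p = 0.0478 and 0.0226). Esrrb was the only 1 of the 10 above 0 after iSDmut, where the median log2 change was -1.54 and 6 had an unadjusted p under 0.05. The summed pluripotency list, most of it Lin28a, was at 302 to 368 CPM in pMN, 244 to 288 CPM in iNkx2.2 and 201 to 227 CPM in iSDmut and so was lower in every induced library than in every control, as Sox2 was. Of 5 tested oligodendrocyte precursor genes, Olig1 and Olig2 fell after iNkx2.2, and the list summed to 241 to 369 CPM in pMN, 21.5 to 48.2 CPM in iNkx2.2 and 46.1 to 111 CPM in iSDmut. Of 5 floor plate genes, all tested, Slit1 rose after iNkx2.2 by 1.62 (edgeR adjusted p = 0.00185) and was lower in iSDmut than in iNkx2.2, at -1.52 (edgeR adjusted p = 0.0378). The floor plate list summed to 401 to 531 CPM in pMN, 707 to 931 CPM in iNkx2.2 and 339 to 491 CPM in iSDmut, with iNkx2.2 above both other groups. Of 6 tested mesenchyme genes, Pdgfrb and Dcn rose after iNkx2.2, and that list summed to 43.3 to 57.4 CPM in pMN, 69.5 to 102 CPM in iNkx2.2 and 15.6 to 64.7 CPM in iSDmut. The part of these lists in the changes of Slc1a3 and of the SoxB genes, and in the differences between iSDmut and iNkx2.2, was not tested.

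For each of the 8 genes, the gene with the most similar pattern was found among 11200 genes, as the smallest root mean square difference of centred log2 CPM over the 8 libraries. For Slc1a3 this was Gli1, a transcription factor of Hedgehog signalling, with a difference of 0.270, at 195, 190 and 151 CPM in pMN, 26.3, 23.3 and 17.0 CPM in iNkx2.2, and 50.1 and 32.8 CPM in iSDmut. For Sox3 it was Fzd9, a Wnt receptor gene (0.174), and for Sox2 it was Ccdc88c (0.0535). The others were Dgka for Fabp7 (0.163), Tcf7l2 for Sox1 (0.0864), Ccdc78 for Sox9 (0.229), 6530402F18Rik for Sox21 (0.118) and Hps5 for Vim (0.0432). Among the 8 genes themselves, Sox1 and Sox2 were nearest to each other with a difference of 0.220, then Fabp7 and Vim with 0.281. The median difference over the 11200 genes was 0.343 from Sox1, 0.305 from Sox2, 0.455 from Fabp7 and 0.248 from Vim. Fabp7 thus lay farther from Vim than the median gene did. Vim varied least of the 8 genes (root mean square 0.151), and genes that vary little differ little by this measure. All points of these differences share the same 8 libraries.

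In embryonic pancreas, where Sox9 marks progenitors and duct cells, Sox9 was at 164, 126 and 155 CPM in controls and 113, 107, 149 and 179 CPM in the SD mutants. The groups overlapped, with means of 149 ± 20.2 CPM (SD, n = 3) and 137 ± 33.3 CPM (SD, n = 4) and a log2 change of -0.12 (SE 0.196, 95% interval -0.57 to 0.34, edgeR adjusted p = 1.00). Of the 8 genes, 6 passed the count filter, and edgeR called 0 of them (0.00534% of all genes), with 0 at an unadjusted p under 0.05 and 0 called by DESeq2, and 0 were without overlap (3.58% of all genes). Slc1a3 was at 21.9, 28.0 and 23.8 CPM in controls and 24.4, 25.1, 20.7 and 22.2 CPM in mutants. Vim was at 520, 695 and 827 CPM in controls and 807, 819, 471 and 521 CPM in mutants, and Fabp7 at 2.54, 8.71 and 4.49 CPM and 5.81, 6.96, 3.06 and 2.51 CPM. No group stood apart for these 3 genes. Sox2 reached at most 1.21 CPM and Sox21 at most 0.686 CPM, and Sox1 and Sox3 were not tested.

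The whole pancreata expressed Pdx1, with means of 95.9 ± 16.7 CPM (SD, n = 3) for controls and 91.5 ± 29.2 CPM (SD, n = 4) for mutants, and the acinar gene Cpa1. The 10 duct genes, all tested, had 0 calls by edgeR (1 unadjusted p under 0.05) and summed to 935 to 1349 CPM in controls and 895 to 1224 CPM in mutants. Muscle genes summed to between 3.71 and 4012 CPM in controls and between 5.66 and 3735 CPM in mutants, high in control 3 and mutant 2, and their part in the spread of Vim was not tested.

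**Figure D4:**
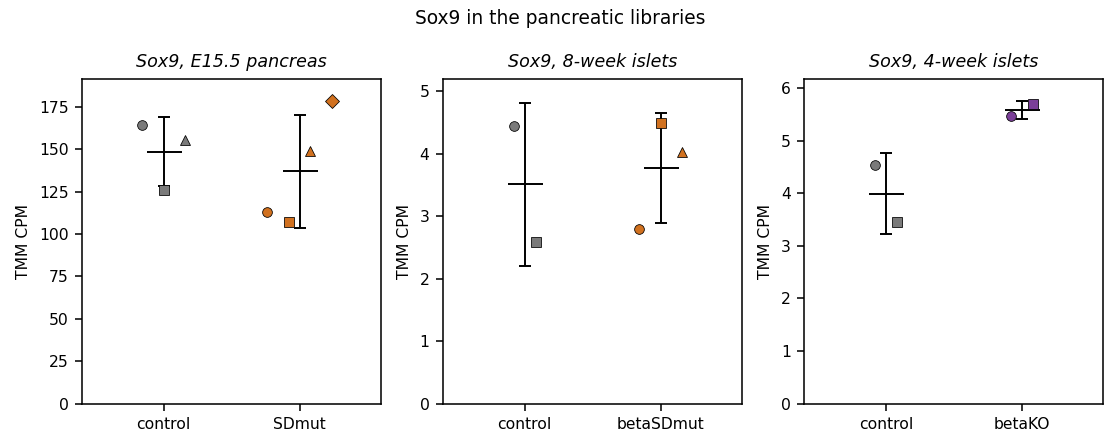
TMM CPM of Sox9 in E15.5 embryonic pancreas, 8-week islets and 4-week islets, with control and mutant groups on the x axis of each panel. Points are libraries and bars the mean ± SD. The embryonic groups overlap between 107 and 179 CPM, and the islet libraries lie at 2.59 to 5.70 CPM.

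In 8-week islets Sox9 was at 4.44 and 2.59 CPM in controls and 2.79, 4.49 and 4.02 CPM in betaSDmut, with overlap and a log2 change of 0.10 (SE 0.324, edgeR adjusted p = 0.866). In 4-week islets it was at 4.53 and 3.44 CPM in controls and 5.46 and 5.70 CPM in betaKO, with a log2 change of 0.48 (SE 0.259, edgeR adjusted p = 0.458). These CPM did not overlap, which held for 47.5% of all genes. On the deposited FPKM scale Sox9 did overlap, at 1.14 to 1.57 in controls and 1.51 to 1.84 in betaKO. Islets express little Sox9. The 10 duct genes summed to 323 to 427 CPM in 8-week controls and 238 to 321 CPM in betaSDmut. Of the 9 duct genes tested there, Krt7 was called lower (-0.63, edgeR adjusted p = 0.00761). The part of duct cells in these Sox9 values was not tested.

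Of the 8 genes, 4 passed the filter in 8-week islets, and Slc1a3 and Vim were called, where 7.94% of all genes were called, 3.87% as lower and 4.07% as higher. Slc1a3 was at 2.78 and 4.18 CPM in controls (59 and 97 counts) and at 0, 0.0809 and 0.362 CPM in betaSDmut (0, 2 and 10 counts). The mutant libraries were all far below the controls, on few counts, and 2 of the 4 tested genes (Slc1a3 and Vim) had no overlap where 45.9% of all genes had none. The log2 change was -4.46 (SE 0.858, edgeR adjusted p = 0.0385), from 3.48 ± 0.987 CPM (SD, n = 2) to 0.148 ± 0.190 CPM (SD, n = 3). The call ended without control 1, control 2 or betaSDmut 2 (edgeR adjusted p = 0.214, 0.290 and 0.136) and with no count filter (edgeR adjusted p = 0.0555), and the authors' deposited table gave a called log2 change of -5.23.

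Of 7 tested astrocyte genes, Gfap and Slc1a2 were lower in these islets, as was Slc1a3, 1 was higher (Aqp4) and 4 were not called. Gfap, the astrocyte and Schwann cell filament, was at 4.95 and 8.06 CPM in controls and 0.205, 0.121 and 0.543 CPM in betaSDmut (log2 change -4.44, edgeR adjusted p = 0.0106), and Slc1a2, the partner glutamate transporter, fell by 4.98 (edgeR adjusted p = 0.0463). Ttyh1 fell by 1.86 (edgeR adjusted p = 0.0460), and Aqp4, the water channel, rose by 4.99 (edgeR adjusted p = 0.0207). Olig1, called lower (edgeR adjusted p = 0.0152), had 17 and 19 counts in controls and 1, 0 and 0 counts in betaSDmut. The astrocyte list summed to 366 to 368 CPM in controls and 385 to 843 CPM in betaSDmut. The part of glia, or of any other cell in the preparation, in the change of Slc1a3 was not tested.

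Vim was at 11.2 and 11.9 CPM in 8-week controls and 16.4, 23.4 and 22.2 CPM in betaSDmut, all mutant libraries above the controls (log2 change 0.84, SE 0.171, edgeR adjusted p = 0.0411). On the deposited FPKM scale the same libraries were at 11.6 and 13.6 and at 9.47, 10.01 and 14.0, which overlapped, with a limma log2 change of -0.20 (adjusted p = 0.567). The count-based direction therefore does not hold in the deposited FPKM, and the call ended without control 1, control 2, betaSDmut 2 or betaSDmut 3 (edgeR adjusted p = 0.264, 0.263, 0.124 and 0.0729). The authors' deposited table gave a log2 change of 0.82 for Vim, in the direction of the counts and not called. The 7 mesenchyme genes, which Vim marks in most tissues, had 0 calls by edgeR (6 unadjusted p under 0.05) with a median log2 change of -0.91, and summed to 211 to 275 CPM in controls and 107 to 169 CPM in betaSDmut. Fabp7 was at 0.991 and 1.98 CPM in controls and 0.616, 1.01 and 1.92 CPM in betaSDmut (edgeR adjusted p = 0.749), and Sox1, Sox2, Sox3 and Sox21 had at most 6 counts in any islet library.

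**Figure D5:**
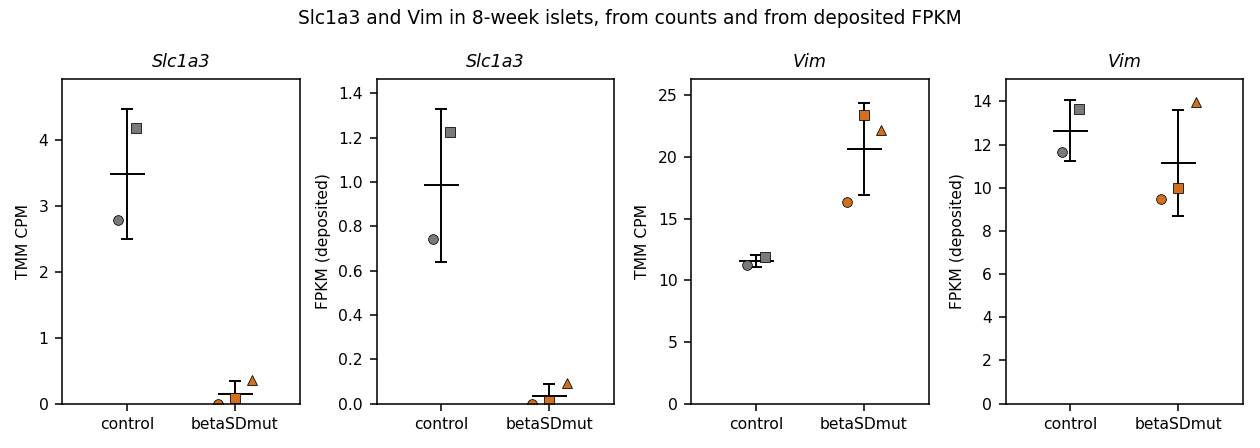
Slc1a3 and Vim in 8-week control and betaSDmut islets (x axis), as TMM CPM and as deposited FPKM (y axes). Points are libraries and bars the mean ± SD. Slc1a3 is near 0 in betaSDmut on both scales, while Vim is higher in betaSDmut in CPM (16.4 to 23.4 against 11.2 and 11.9) and overlaps in FPKM.

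In 4-week islets all 4 tested genes were higher in CPM in both betaKO libraries than in both controls, where 47.5% of all genes did not overlap. Of the 4, edgeR called 0 (1.56% of all genes, 0.81% higher and 0.75% lower), and 1 had an unadjusted p under 0.05. DESeq2 also called 0 of the 3 genes to which it gave an adjusted p. Fabp7 was at 0.725 and 0.967 CPM in controls and 2.82 and 2.53 CPM in betaKO (log2 change 1.68, SE 0.392, edgeR adjusted p = 0.127). Slc1a3 was at 0.423 and 0.242 CPM in controls (14 and 4 counts) and 0.840 and 0.950 CPM in betaKO (14 and 12 counts), a log2 change of 1.35 (edgeR adjusted p = 0.331). Vim differed least, with 19.8 and 18.6 CPM against 20.5 and 21.3 CPM (log2 change 0.12, edgeR adjusted p = 0.695), and its direction turned in the deposited FPKM (limma, -0.12). Mean Nkx2-2 in these libraries was 90.7 ± 19.1 CPM (SD, n = 2) for controls and 79.8 ± 20.3 CPM (SD, n = 2) in the libraries labelled betaKO (edgeR adjusted p = 0.779), and their labels name genomic DNA as the molecule. Acinar genes summed to 3112 to 5695 CPM in controls and 6803 to 21424 CPM in betaKO, and the mesenchyme genes Col1a1 and Col3a1 rose by 1.36 and 1.00 (edgeR adjusted p = 0.0224 and 0.0344). The part of those cells in the 4 genes' levels was not tested.

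The effects at the 2 ages were also set against each other over the 9 islet libraries. The betaSDmut effect minus the betaKO effect was -5.82 for Slc1a3 (SE 1.24, edgeR adjusted p = 0.0778), where 1.21% of 15995 genes were called, -1.998 for Fabp7 (edgeR adjusted p = 0.294), -0.37 for Sox9 (edgeR adjusted p = 0.778) and 0.72 for Vim (edgeR adjusted p = 0.196). None of the 4 was called, and age and mutation differ together between these experiments.

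Of the 8 genes, 1, Vim, had a final Nkx2.2 site within 100 kb of its start in MIN6 cells, where 41.3% of 21755 protein-coding genes had one. The site was at chr2:13595976, 22049 bp downstream of the start and 13150 bp past the end of Vim, in no annotated gene. Its log2 CPM was 7.25 and 7.22 in the 2 immunoprecipitations, which placed its mean at percentile 70.4 of the 6473 final sites, and the authors' deposited table joins it to Vim. The 151 bases around it are shown because they are the one final site within 100 kb of these genes, at chr2:13595901-13596051 on the plus strand (GRCm38.p6), with the Nkx2 core in capitals.
Vim downstream site: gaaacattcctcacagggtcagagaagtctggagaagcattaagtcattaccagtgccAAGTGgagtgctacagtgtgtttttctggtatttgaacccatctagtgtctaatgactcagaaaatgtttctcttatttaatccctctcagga
It held 1 Nkx2 core, as did 32.9% of the final sites in windows of that size, and no Sox core. An event outside the final sites lay at chr10:57822711, 37830 bp downstream of the start of Fabp7, with 34 and 23 reads. Near Slc1a3, Sox2 and the other 5 genes the nearest final sites were 214804 to 4437082 bp from the start. MIN6 cells are beta cells, and binding in progenitors was not analysed here.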

How the data were processed

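The 8 genes and the gene lists were chosen with earlier results of these data known. Raw read counts per gene and FPKM were deposited by the authors, per the deposited description, which names edgeR with limma, and DESeq2, for the log2 changes in the authors' comparison tables, where a score of -1, 0 or 1 marks the authors' calls (the threshold is not given in the sources used here). For the final ChIP-seq sites the authors deposited log2 CPM, and for all GEM events read counts in 500 bp. The submitters' processing notes name mm10, STAR, Cufflinks and bedtools 2.17.0, with no role. The counting rule and the use of strand are not given in the sources used here.

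Counts were fitted with edgeR 4.0.16 in R 4.3.3 (TMM, filterByExpr, robust quasi-likelihood test, Benjamini-Hochberg adjustment over all genes). The 8 progenitor libraries shared 1 model of 3 groups, and pancreas comparisons used age-matched libraries. SEs are absolute log2 changes over the root of F. DESeq2 1.42.0 and limma 3.58.1 on log2(FPKM + 0.1), for genes with a mean FPKM of at least 0.1, were alternatives, and the latter, the lane 2 fits of iSDmut and the difference of islet effects were chosen after seeing the data. The scripts were tested on simulated counts. Replicate numbers, taken from the titles, paired pMN with iNkx2.2: deviations from the group means correlated with r = 0.535, 0.513 and 0.568 over genes. No 2 libraries held identical counts.

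Named genes were the 8 genes in each comparison, Nkx2-2, list genes called over all genes (at most 4 per list and direction), identity lists, and for each of the 8 genes the gene of most similar pattern among those whose mean log2 CPM was no lower than 2. Some results of the gene lists are not reported here. Gene positions are from GENCODE M21 (GRCm38) and promoters from RefSeq (GRCm38.p6). Promoter and site sequences were read from files of that build. The ChIP-seq input library was not used here, and figures were drawn with matplotlib 3.10.9.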

Additional observations from a re-analysis of the deposited data

Results flagged for a closer look

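In embryonic pancreas, 2 values stood apart from the other 3 libraries of the SD mutant group, in which each of the 8 genes was examined. The rule flags about 1 gene in 20 by chance only where values are normally distributed. A gene with counts in only 1 library, as Sox1 had, is always flagged, and the 8 genes share the same libraries. Sox1 was at 0.0245 CPM in SDmut replicate 3, which is 1 count, and at 0 in the other 3. Sox2 was at 1.21 CPM (51 counts) in SDmut replicate 2, the library whose muscle genes summed to 3735 CPM, the highest of its group, against 0.387, 0.490 and 0.475 CPM in the others. Among the controls, Sox2 was at 0.888 CPM in control 2 and at 0.337 CPM in control 3, the control with high muscle genes. The part of muscle in these Sox2 values was not tested. Sox2 was not called between groups, and Sox1 was not tested.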

How the results depend on the processing

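The number of the 8 genes called after iNkx2.2 was 3, and became 5 with DESeq2, 6 with lane as a term and 7 with the replicate block. It was 1 to 3 when a library was left out (1 without pMN replicate 1). Calls over all genes rose as well, from 9.49% in the main fit to 29.6% with the block, so a larger number is not particular to the 8 genes. Counts over all genes in several other settings are given below, and the share with DESeq2 after iNkx2.2 is not given here. After iSDmut it was 2, and 1 with total library size, with only the 2 groups compared, with limma on FPKM, or with a minimum absolute log2 fold change of 1, and 1 to 2 when a library was left out. Between iSDmut and iNkx2.2 it was 0, and 1 with DESeq2, 3 with lane as a term (Sox3, Sox9 and Sox21), 2 within lane 2, and 0 to 2 when a library was left out (2, Sox9 and Sox21, without iSDmut replicate 2). iSDmut replicates were not taken as paired (with pMN of the same number r was 0.343 and 0.0503, with iNkx2.2 0.332 and 0.112, over 2 pairs each), and the replicate block gave 2 calls after iSDmut and 1 between the transgenes. In 8-week islets the block ended the call of Vim (0.76, edgeR adjusted p = 0.0618) and no other. Within 10 kb, 0 of the 8 genes had a final site, where 7.34% of 21755 protein-coding genes had one.

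Directions turned only for values that were not called, apart from Vim in 8-week islets. With lane as a term, and within lane 2, Sox1 after iSDmut was at 0.20 and 0.18, and Vim between the transgenes at 0.092 and 0.11. With limma on FPKM, Sox2 between the transgenes was at -0.044, Vim at 8 weeks at -0.20 and Vim at 4 weeks at -0.12. With the number in the titles as a term, embryonic Vim was at 0.016. Leaving out 1 library gave, after iNkx2.2, -0.10 to 0.16 for Sox9. After iSDmut it gave -0.61 to 0.49 for Sox21, -0.055 to 1.45 for Sox9, -0.016 to 0.33 for Vim and -0.59 to 0.080 for Sox1. Between the transgenes it gave -0.23 to 0.12 for Vim, -0.11 to 0.16 for Sox2, -0.22 to 0.45 for Sox1, -0.20 to 0.87 for Sox3 and -0.061 to 1.45 for Sox9. In embryonic pancreas it gave -0.16 to 0.019 for Slc1a3, -0.53 to 0.38 for Fabp7 and -0.22 to 0.11 for Vim, and in 8-week islets -0.86 to 0.26 for Fabp7 and -0.24 to 0.54 for Sox9. The cause was not tested.

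Counts over all genes moved too, and each value from FPKM below is from limma, not edgeR. After iNkx2.2 edgeR called 1486 genes, 4629 with the block, 3492 with lane as a term, 722 by limma from FPKM, 630 with the minimum fold and 412 to 1299 without 1 library. After iSDmut it called 554, 1334 by DESeq2, 2626 with the block, 295 with only the 2 groups, 313 with the minimum fold, 151 within lane 2, 206 from FPKM and 171 to 349 without 1 library. Between the transgenes it called 44, 496 by DESeq2, 145 without a filter, 528 with the block, 1023 with lane as a term, 243 within lane 2, 13 with only the 2 groups, 6 from FPKM and 2 to 467 without 1 library. At 8 weeks it called 1224, 2009 by DESeq2, 757 with the block and 37 to 2765 without 1 library. At 4 weeks it called 233, 806 by DESeq2, 372 without a filter, 127 with total library size, 20 from FPKM and 4 to 478 without 1 library. In embryonic pancreas it called 1, 28 by DESeq2, 0 with the title number, 2 with total library size and 0 to 2 without 1 library. With total library size the genes called higher were 917 of 1329 in place of 738 of 1486 after iNkx2.2, 342 of 506 in place of 297 of 554 after iSDmut, and 927 of 1361 in place of 628 of 1224 at 8 weeks. The median of all genes at 4 weeks was -0.18 from FPKM.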
